A study of Mus musculus with 28 samples.

Results

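Tet1, Tet2, Tet3, Tdg, Ogt and Mbd4 are 6 genes of the TET oxidation and active DNA demethylation pathway, chosen by name out of the 37991 genes counted in these mouse embryonic stem cells (mESCs). All 6 were among the 20321 genes with enough reads to be tested. The choice was made with earlier results of these data in view, and the rise of Tet3 after Kap1 knockdown and its dependence on genotype were among them. Kap1 is the gene symbol Trim28, the corepressor that KRAB zinc finger proteins bring to DNA.

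The TET enzymes are dioxygenases that use 2-oxoglutarate, iron and vitamin C to oxidise methylated cytosine (5mC). The first product is the hydroxymethyl base, 5hmC, and further steps give the formyl and carboxyl bases. TDG, a thymine DNA glycosylase, cuts out the latter, and base excision repair puts an unmodified cytosine in their place, while MBD4 is a glycosylase that acts on mismatched thymine at methylated CpG sites. OGT, the enzyme that adds O-linked N-acetylglucosamine to proteins, binds TET proteins. Naive mESCs are known to rely on TET1 and TET2, and TET3 is best known from the oocyte and the zygote.

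RNA-seq was made from wild-type (WT) mESCs, from DNMT TKO cells, which lack Dnmt1, Dnmt3a and Dnmt3b, and from TET TKO cells, which lack Tet1, Tet2 and Tet3. Each was transduced with an empty hairpin vector (shEmpty) or with a hairpin to Kap1 (shKap1), selected with 4 µg/mL puromycin and collected after 5 days in 2i + LIF medium. The labels put all lines in the J1 line of strain 129S4/SvJae, and each genotype is 1 line, the DNMT TKO and TET TKO lines having come from different laboratories, so a difference between genotypes cannot be told apart from a difference between lines. There were 3 libraries for each hairpin in WT and in DNMT TKO and 2 for each in TET TKO, which the study's methods give as independent experiments. WT cells were also profiled for H3K4me3 and H3K27me3 without a knockdown and, with both hairpins, for 5hmC.

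Depth and identity were checked first. Libraries held 18108431 to 29373696 reads on genes. Replicate 1 of WT and of DNMT TKO stood apart from replicates 2 and 3 in read counts over all genes, as did the 2 shEmpty libraries of TET TKO from each other. Values without replicate 1 of WT and DNMT TKO, an alternative chosen after seeing the data, are given for the results that differ. Kap1 (Trim28) fell from a mean of 1752 to 165 CPM (gene reads scaled to the size of the library) in WT and from 1836 to 165.7 CPM in TET TKO, but only from 1869 to 427 CPM in DNMT TKO. The 3 DNMT TKO knockdown libraries kept 326.8, 448.3 and 506 CPM of it, more than every WT or TET TKO knockdown library, where the highest was 190 CPM. The log2 change of Trim28 was therefore 1.28 (SE 0.21) less negative in DNMT TKO than in WT, with an adjusted p of 8e-04 in edgeR. Dnmt1, Dnmt3a and Dnmt3b were lower in DNMT TKO by log2 changes of -1.65, -3.04 and -2.64. The embryonic stem cell markers (9 genes) summed to 5380 to 5590 CPM in WT shEmpty and to 3120 to 3210 CPM in WT shKap1. All of them fell past the adjusted p in WT, with log2 changes such as -1.34 for Sox2 and -0.75 for Nanog, except Pou5f1 (-0.12, adjusted p 0.14) and Dppa3 (-0.29, adjusted p 0.59) in edgeR. The 2-cell-like markers, 6 of 7 found in the files, rose from 15 to 28.4 CPM in WT shEmpty to 210 to 226 CPM in WT shKap1.

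The annotated start sites of the TET genes differed in base composition, which matters here because DNA methylation acts at CpG dinucleotides. The windows printed run from 250 bases before to 50 bases after the start annotated in GENCODE, in NCBIM37 (mm9), on the minus strand and 5′ to 3′, with every CpG in capitals. Tet3 lies at chr6:83312367-83391672 and its window at chr6:83391623-83391922. Tet1 lies at chr10:62267318-62361866 with its window at chr10:62361817-62362116, and Tet2 at chr3:133126643-133207354 with its window at chr3:133207305-133207604.
Tet3: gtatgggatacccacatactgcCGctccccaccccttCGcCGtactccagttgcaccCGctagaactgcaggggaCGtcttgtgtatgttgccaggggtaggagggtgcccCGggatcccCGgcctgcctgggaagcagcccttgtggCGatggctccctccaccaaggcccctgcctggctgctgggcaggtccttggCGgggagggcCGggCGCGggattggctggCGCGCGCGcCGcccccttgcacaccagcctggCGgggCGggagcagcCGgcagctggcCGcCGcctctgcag
Tet1: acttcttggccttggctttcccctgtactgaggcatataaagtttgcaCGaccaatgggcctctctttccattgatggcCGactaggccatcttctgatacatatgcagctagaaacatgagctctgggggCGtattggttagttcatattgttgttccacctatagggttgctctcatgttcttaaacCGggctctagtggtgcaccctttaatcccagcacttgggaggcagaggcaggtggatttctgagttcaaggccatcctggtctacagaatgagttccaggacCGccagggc
Tet2: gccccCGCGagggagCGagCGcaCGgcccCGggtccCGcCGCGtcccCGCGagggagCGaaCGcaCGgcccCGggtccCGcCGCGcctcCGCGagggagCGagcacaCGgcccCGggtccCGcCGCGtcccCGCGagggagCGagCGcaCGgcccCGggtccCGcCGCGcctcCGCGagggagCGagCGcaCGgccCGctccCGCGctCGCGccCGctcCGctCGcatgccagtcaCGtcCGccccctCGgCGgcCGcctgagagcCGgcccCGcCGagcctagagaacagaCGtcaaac

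Tet2 held 57 CpGs in this window, Tet3 22 and Tet1 5, against a median of 11 over 22375 annotated starts. Searched as CG, which reads the same on both strands, at least 1 CpG was found in 95.1% of those starts. The Tet2 window had as many CpGs as or more than 99.9% of starts, the Tet3 window 74% and the Tet1 window 34.3%. Tdg (chr10:82092573-82113544), Ogt (chrX:98835399-98879690) and Mbd4 (chr6:115790715-115803389) held 25, 20 and 23. The CpGs of the Tet2 window stood in near repeats of one short unit. The annotated Tet1 start fell inside a B1 repeat, a SINE named B1_Mus1 at chr10:62361785-62361930. This repeat had 40 reads over the 16 RNA libraries, while Tet1 had 4665 to 17236 reads in each of them. Which start Tet1 uses in these cells was not tested, so its 5 CpGs describe the annotated start only.

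In WT cells without a knockdown the 6 genes spanned a wide range per length, in CPM per kilobase of exon (RPKM). Ogt stood at 51.8 ± 2.37 RPKM, Tet1 at 44.5 ± 5.54, Tet2 at 44.3 ± 7.11 and Mbd4 at 11.4 ± 1.39 (SD, n = 3). Tet3 stood at 1.26 ± 0.258 RPKM and Tdg at 1.24 ± 0.0715 RPKM. The libraries of Ogt, Tet1 and Tet2 overlapped in level, as did those of Tet3 and Tdg. The RPKM of Tdg divides by its whole exon length, of which 39.6% could not take uniquely aligned reads, so its level is understated and its order against Tet3 is not settled. The gap from Mbd4 down to Tet3 was larger than the spread of either. Of the summed RPKM of the TET genes, Tet3 made up 1.09% to 1.56% in the WT shEmpty libraries.

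**Figure D1:**
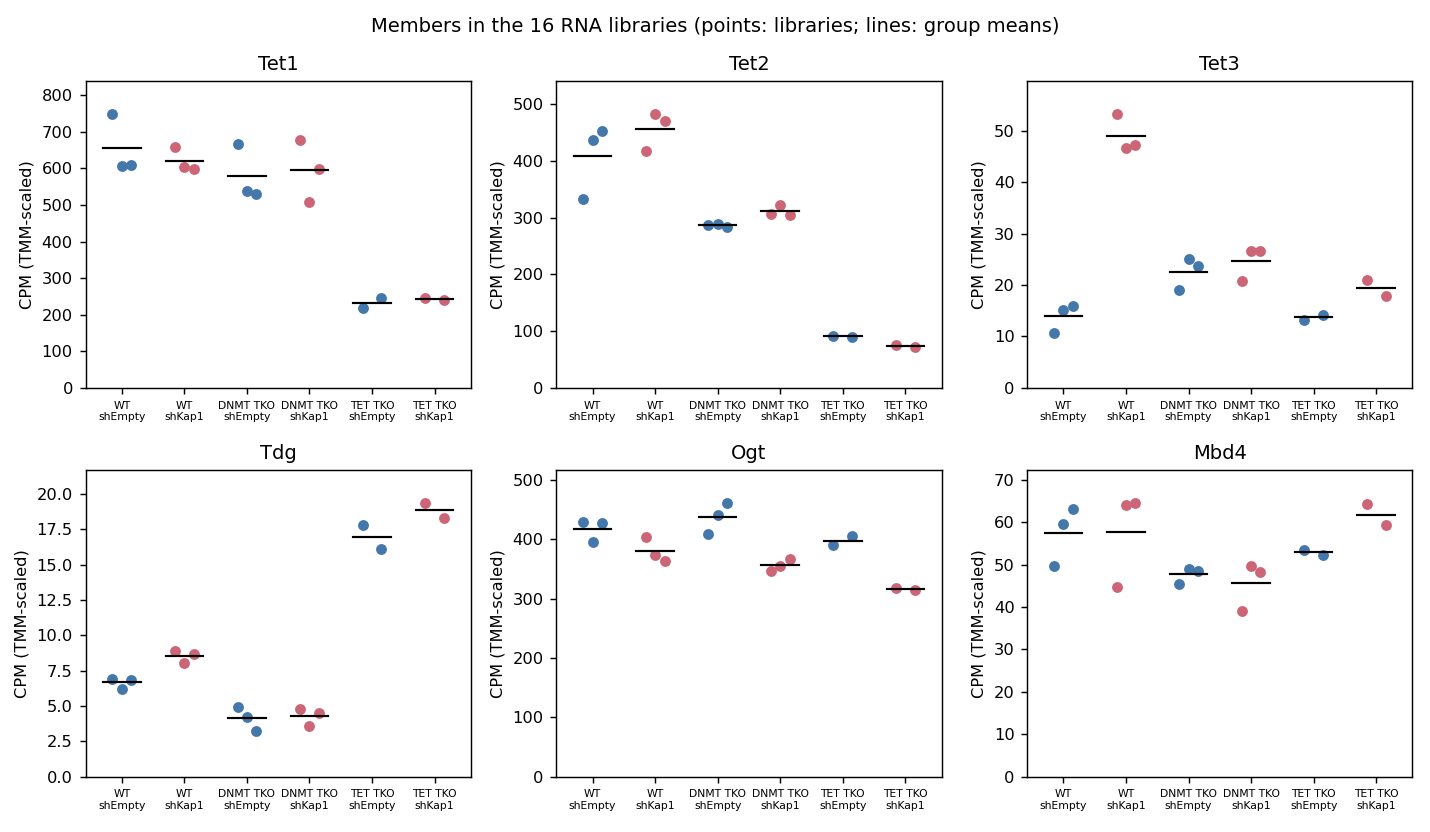
Each panel plots 1 gene, with CPM on the y axis and the 6 combinations of genotype and hairpin on the x axis. Points are libraries and horizontal lines are group means. In the Tet3 panel the 3 WT shKap1 libraries sit between 46.64 and 53.31 CPM, above every other library.

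Tet3 rose after Kap1 knockdown in WT cells. Its level was 10.66, 15.23 and 15.92 CPM in the 3 WT shEmpty libraries and 53.31, 46.64 and 47.18 CPM in the 3 WT shKap1 libraries. The groups did not overlap, and the means were 13.94 ± 2.859 and 49.04 ± 3.705 CPM (SD, n = 3). The log2 change was 1.80 (SE 0.14), or 3.49-fold, with an adjusted p of 1.8e-08 in edgeR's quasi-likelihood test with Benjamini-Hochberg adjustment over all genes tested. Because Tet3 was picked with this rise known, its p describes the size of the change against the spread and is no independent support for it. Its share of the summed TET RPKM went to 4.31% to 5.06%, with the sum itself at 88 to 92.2 RPKM in shEmpty and 94.9 to 97.6 RPKM in shKap1. Without replicate 1 of WT and DNMT TKO the log2 change was 1.61 (SE 0.08).

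In DNMT TKO cells Tet3 had 19.09, 25.1 and 23.64 CPM with shEmpty and 20.89, 26.71 and 26.67 CPM with shKap1. These groups overlapped, and the log2 change was 0.13 (SE 0.14, 95% interval -0.16 to 0.42) with an adjusted p of 0.52 in edgeR. The knockdown effect on Tet3 was lower in DNMT TKO than in WT by a log2 difference of -1.67 (SE 0.20), with an adjusted p of 1.3e-05 in edgeR. That the rise depends on genotype was also known when Tet3 was picked, so this value and the one for TET TKO describe sizes and are no independent support. The weaker loss of Trim28 in DNMT TKO ran in the same direction, and its part in this difference was not tested. The level before knockdown also differed. Every DNMT TKO shEmpty library was above every WT shEmpty library, at a mean of 22.61 against 13.94 CPM, a log2 difference of 0.69 (SE 0.14) with an adjusted p of 0.00069 in edgeR. Tet3 is on chromosome 6, whose genes had a median log2 difference of -0.31 in that contrast, the lowest of 20 chromosomes. Relative to that median the Tet3 difference was 1.00.

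In TET TKO cells, where it is a target, Tet3 had 13.29 and 14.23 CPM with shEmpty and 21.02 and 17.81 CPM with shKap1. The groups did not overlap, and the log2 change was 0.50 (SE 0.17), or 1.41-fold, with an adjusted p of 0.038 in edgeR. This change was under 2-fold and passed the adjusted p in 7 of 11 alternative fits, where it ran from 0.00021 to 0.25. It was lost in limma-voom and without shEmpty replicate 1, shEmpty replicate 2 or shKap1 replicate 1 of TET TKO. The knockdown effect was smaller than in WT by a log2 difference of -1.30 (SE 0.22), with an adjusted p of 0.0012 in edgeR. Here Trim28 fell about as far as in WT, with log2 changes of -3.47 and -3.41 and an interval of -0.56 to 0.44 for the difference between them. Without knockdown the Tet3 count in TET TKO was close to that of WT, with a log2 difference of -0.03 (SE 0.16, 95% interval -0.37 to 0.31). The position of the mutation is not given in the sources used here, so a count over the whole gene does not check the loss of the protein. The counts of Tet3 in this line come from a mutated gene, and the part of its own mutation in the smaller change was not tested. The knockdown contrast in WT and the differences of either mutant from WT share the same WT libraries.

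**Figure D2:**
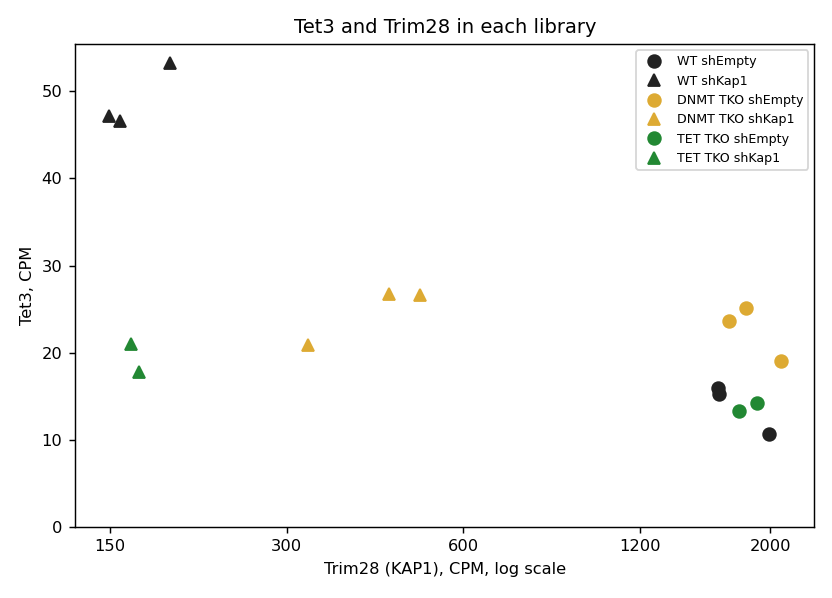
Each point is 1 of 16 libraries, with the CPM of Trim28 on a log x axis and the CPM of Tet3 on the y axis. The WT and TET TKO knockdown libraries lie at similar Trim28 levels of 149.3 to 190 CPM, while Tet3 is at 46.64 to 53.31 CPM in the first and 17.81 to 21.02 CPM in the second.

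Tet1 did not pass the test after knockdown in any genotype. In WT it had 748.7, 605 and 609.9 CPM with shEmpty and 659.5, 602.8 and 598.9 CPM with shKap1, and these groups overlapped. The log2 changes were -0.08 in WT, 0.04 in DNMT TKO and 0.06 in TET TKO, with 95% intervals of -0.32 to 0.16, -0.20 to 0.28 and -0.24 to 0.35. In TET TKO, where it is a target, Tet1 stood at 219.1 and 246.9 CPM with shEmpty, a log2 difference from WT of -1.49 (SE 0.13) with an adjusted p of 1e-06 in edgeR.

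Tet2 did not pass the test after knockdown in WT or DNMT TKO, with log2 changes of 0.16 (95% interval -0.02 to 0.34) and 0.12 (-0.06 to 0.30). It passed in 3 of 14 alternative fits in WT and in 1 of 14 in DNMT TKO. Both include the fit without replicate 1 of WT and DNMT TKO, with log2 changes of 0.12 and 0.11 and adjusted p of 0.017 and 0.036 in edgeR, and in WT the others were those without shEmpty replicate 3 or without shKap1 replicate 1. In WT it had 332.8, 437.3 and 453.4 CPM with shEmpty and 417, 482.8 and 470.9 CPM with shKap1, which overlapped though each same-numbered pair was higher with shKap1. In DNMT TKO it had 287.4, 288.2 and 283.6 CPM with shEmpty and 306.9, 321.9 and 305.1 CPM with shKap1, which did not overlap. Without knockdown it was lower in DNMT TKO than in WT by a log2 difference of -0.51 (SE 0.09) with an adjusted p of 0.00012 in edgeR. In TET TKO, where it is a target, its 92.07 and 90.09 CPM with shEmpty were below those of WT by a log2 difference of -2.16 (SE 0.11), with an adjusted p of 1.3e-10 in edgeR. The remaining reads fell further with shKap1, to 76.4 and 71.81 CPM, a log2 change of -0.30 (SE 0.11) with an adjusted p of 0.047 in edgeR. That call passed in only 3 of 11 alternative fits, with adjusted p from 0.00017 to 0.24, and was lost without any one of the TET TKO libraries. The difference of this effect from the one in WT, -0.46 (SE 0.14) with an adjusted p of 0.045 in edgeR, passed in 10 of 18 alternative fits, from 3.8e-06 to 0.16. It was lost in limma-voom, in a fit of only these 4 groups, without WT shKap1 replicate 2 or 3 and without any one of the TET TKO libraries.

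Ogt, which is on the X chromosome, was lower after knockdown in every genotype and passed the test in both mutants. In DNMT TKO it went from 408.7, 440.2 and 461.7 CPM to 346.9, 354.3 and 367 CPM, and in TET TKO from 389.7 and 404.7 CPM to 317.8 and 314 CPM. Neither pair of groups overlapped, and the log2 changes were -0.30 (SE 0.06, adjusted p 0.00043) and -0.33 (SE 0.07, adjusted p 0.0011) in edgeR. In WT, with 429.1, 395 and 426.9 CPM and then 403.8, 372.9 and 362.9 CPM, Ogt was lower in every same-numbered pair of libraries though the groups overlapped. The change was -0.14 (SE 0.06), with an adjusted p of 0.056 in edgeR, 0.052 with the replicate block. It passed in 4 of 14 alternative fits, with adjusted p down to 0.0049 without replicate 1 of WT and DNMT TKO. The difference between mutant and WT did not pass for DNMT TKO (-0.16, 95% interval -0.33 to 0.00, adjusted p 0.18) or for TET TKO (-0.20, -0.38 to -0.01, adjusted p 0.18), both in edgeR. Without replicate 1 of WT and DNMT TKO they were -0.21 (adjusted p 0.0072) and -0.18 (adjusted p 0.028) in edgeR, and the first also passed without DNMT TKO shEmpty replicate 1. Also without replicate 1 of both, Ogt was higher in DNMT TKO than in WT without knockdown by 0.16 on the log2 scale, with an adjusted p of 0.0015 beside 0.35 in the fit of all libraries. All the changes of Ogt were well under 2-fold.

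Mbd4 did not pass after knockdown in any genotype in the fit of all libraries. It had 49.59, 59.55 and 63.16 CPM in WT shEmpty and 44.72, 64 and 64.61 CPM in WT shKap1, so the groups overlapped, and the log2 change was 0.01 (95% interval -0.26 to 0.27). In TET TKO it went from 53.54 and 52.24 CPM to 64.22 and 59.28 CPM without overlap, a log2 change of 0.22 (SE 0.15) with an adjusted p of 0.31 in edgeR. That change passed in 1 of 11 alternative fits, the one of only these groups, with an adjusted p of 0.0013. In DNMT TKO shEmpty all 3 libraries, at 45.4 to 49.06 CPM, were below those of WT, with a log2 difference of -0.27 (SE 0.13) and an adjusted p of 0.095 in edgeR. With the replicate number as a block the adjusted p was 0.029. Without replicate 1 of WT and DNMT TKO, the log2 difference of Mbd4 from WT was -0.30 in DNMT TKO (adjusted p 7e-06) and -0.21 in TET TKO (adjusted p 0.0013, beside 0.58 with all libraries) in edgeR. Mbd4 is on chromosome 6 as well, and relative to the median of that chromosome the difference was 0.04.

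Tdg is the member whose counts were least certain. Of its exonic stretches of 100 bases, the read length, 39.6% had an exact second copy in the genome, against at most 0.955% in the other 5 genes. The copies with most shared stretches lay at chr7:83388075-83390857 (1189) and in the annotated pseudogene Gm9855 at chr10:41772364-41775273 (1071). Further copies lay at chr19:33746768-33748522 (1002) and chr15:82346753-82349711 (566). Since reads were kept only where they aligned uniquely, those stretches could not count for Tdg. Its 6.942, 6.226 and 6.829 CPM in WT shEmpty went to 8.859, 8.055 and 8.689 CPM in WT shKap1, which did not overlap. The log2 change was 0.36 (SE 0.14) with an adjusted p of 0.049 in edgeR, and it passed in 9 of 14 alternative fits, being lost without WT shEmpty replicate 2 or 3 or without any one of the WT shKap1 libraries. In DNMT TKO and TET TKO the changes were 0.07 (95% interval -0.26 to 0.39) and 0.15 (-0.18 to 0.49). Gm9855, named after its values were seen, rose after knockdown in all 3 genotypes, by log2 changes of 0.35 (adjusted p 0.0013) in WT, 0.34 (0.0036) in DNMT TKO and 0.41 (0.006) in TET TKO in edgeR. A sum was taken over Tdg and Gm9855 only, so it leaves out the other copies. The summed CPM of Tdg and Gm9855 was 31.4 to 34.3 with shEmpty and 41.1 to 43.4 with shKap1 in WT. It was 20 to 24.3 and then 25.4 to 27.2 in DNMT TKO, and 27.5 to 29 and then 33.6 to 34.2 in TET TKO, without overlap in any genotype.

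Between genotypes Tdg differed more than any change it made with the hairpin. It had 4.926, 4.247 and 3.2 CPM in DNMT TKO shEmpty and 17.8 and 16.11 CPM in TET TKO shEmpty. The log2 differences from WT were -0.70 (SE 0.15, adjusted p 0.00092) and 1.35 (SE 0.15, adjusted p 2.4e-06) in edgeR, the second a 2.55-fold higher level. Gm9855 moved with the first and against the second, with log2 differences of -0.57 and -1.21. With shEmpty the summed CPM of Tdg and Gm9855 was 27.5 to 29 in TET TKO, below the 31.4 to 34.3 of WT. It was 20 to 24.3 in DNMT TKO. The part that reads shared between the copies had in these differences was not tested.

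**Figure D3:**
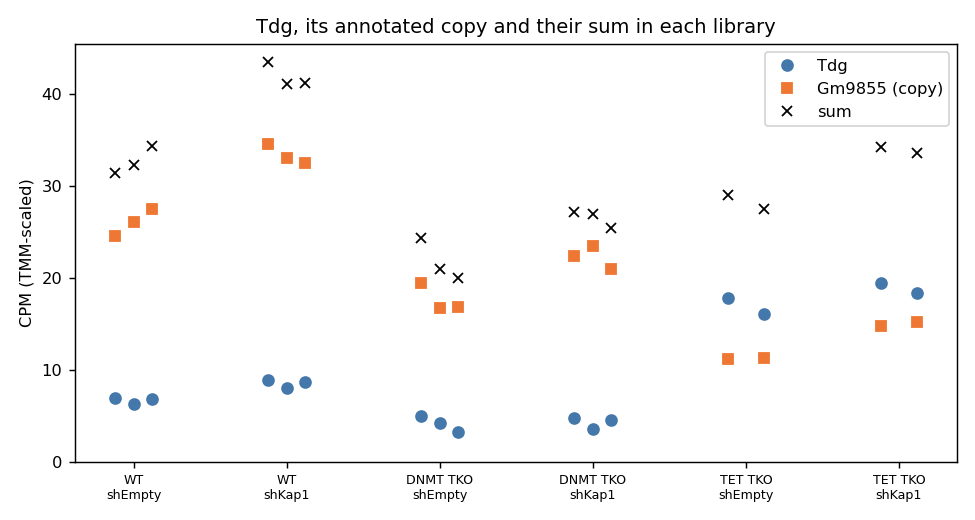
The x axis gives the combinations of genotype and hairpin and the y axis CPM, with a point for each library of Tdg, of its pseudogene Gm9855 and of their sum (crosses). In TET TKO shEmpty Tdg is at 16.1 to 17.8 CPM and Gm9855 at 11.2 to 11.3 CPM, while in WT shEmpty they are at 6.23 to 6.94 and 24.5 to 27.5 CPM.

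Counted by the rule of the study, an adjusted p below 0.05 and a 2-fold change, 1 of the 6 members (Tet3) was called after knockdown in WT, where 17.4% of all genes tested were. None was called in DNMT TKO, against 12.5% of all genes, or in TET TKO, also against 12.5%. In DNMT TKO 1 of the 6 had an unadjusted p under 0.05 in edgeR and in TET TKO 3 had, and limma-voom and DESeq2 called none by the same rule in either. The knockdown effect differed from WT for 1 member in DNMT TKO, against 7.14% of all genes, and for 1 in TET TKO, against 4.21%, and both times it was Tet3. Without knockdown none of the 6 was called in DNMT TKO against WT, with 4 under an unadjusted 0.05 in edgeR and none called by limma-voom or DESeq2, where 16.3% of all genes were. In TET TKO against WT 3 were called, with Tdg higher and Tet1 and Tet2 lower, against 10.5% of all genes. The Tdg call covers its uniquely aligned reads alone, and the sum of Tdg and Gm9855, which leaves out the other copies, was lower in TET TKO.

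The counts on the adjusted p alone were as follows. In WT 2 of 6 passed (Tet3 and Tdg, both higher), against 45.7% of all genes. In DNMT TKO 1 passed (Ogt, lower), against 35.3%, and in TET TKO 3 passed (Tet3 higher, Tet2 and Ogt lower), against 30.4%. Tet3 was chosen with its change known and Tet1, Tet2 and Tet3 are targets in TET TKO, so nothing is read from these shares. The difference of the knockdown effect passed for 1 of 6 in DNMT TKO, against 18.4%, and for 2 of 6 in TET TKO, against 9.69%. Without knockdown 3 of 6 passed in DNMT TKO, against 43.6%, and 3 of 6 in TET TKO, against 27.2%. The median log2 change of the 6 after knockdown in WT was 0.09, beside -0.01 over all genes tested.

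**Figure D4:**
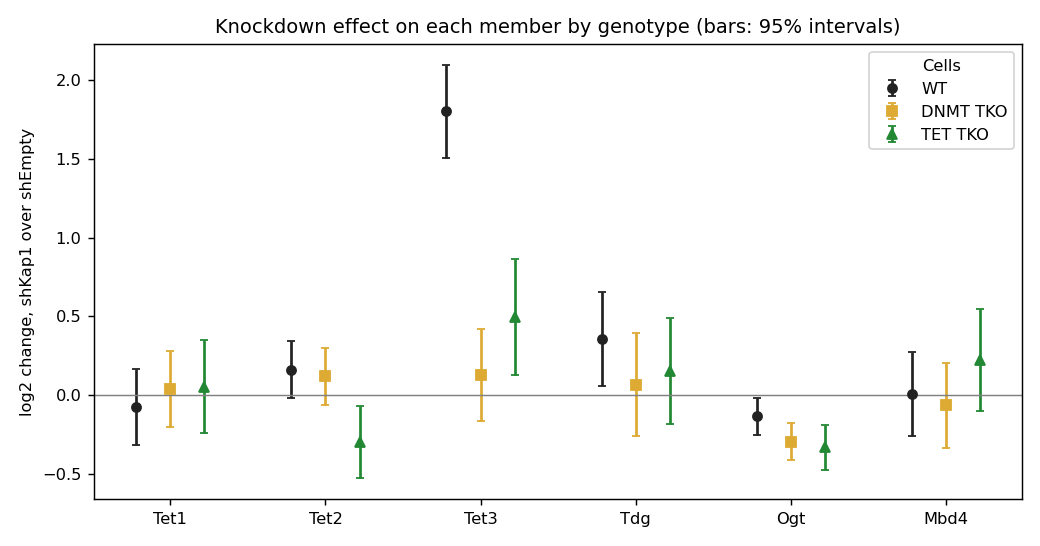
The y axis gives the log2 change after Kap1 knockdown and the x axis the 6 genes, with a point for each genotype and a bar for the 95% interval of the edgeR fit. Tet3 in WT, at 1.80, is the point farthest from 0, and the intervals of Tet1 and Mbd4 include 0 in every genotype.

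The chromatin of WT cells set Tet3 apart from the other members. All 6 starts lay within 1 kb of an H3K4me3 peak in both replicates, as did those of 69.3% of all genes tested. H3K4me3 is a mark of active or poised promoters. H3K27me3, the mark that Polycomb complexes write, was found at Tet3 alone. In replicate 1 its start was inside a peak at chr6:83379801-83417799, of 37999 bases, and in replicate 2 inside one at chr6:83359801-83417799, of 57999 bases, where the median peak was 2999 and 2599 bases wide. The deposited scores of these peaks, 2157 and 4207, were as high as or higher than those of 99.9% of peaks in each replicate. Whether these scores measure more than the width of the peaks was not tested. H3K27me3 covered 82.3% and 77% of the Tet3 gene and none of the other 5.

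Tet3 was not alone in carrying both marks. H3K27me3 lay within 1 kb of the start in both replicates for 3269 of the genes tested, or 16.1%, and both marks for 2708, or 13.3%. Of the genes with both marks, 523 (19.3%) were called higher after knockdown in WT, beside 10.8% of all genes tested. These marks were measured in WT cells without a knockdown only, so whether H3K27me3 at Tet3 changed with Kap1 knockdown or with genotype was not analysed here.

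**Figure D5:**
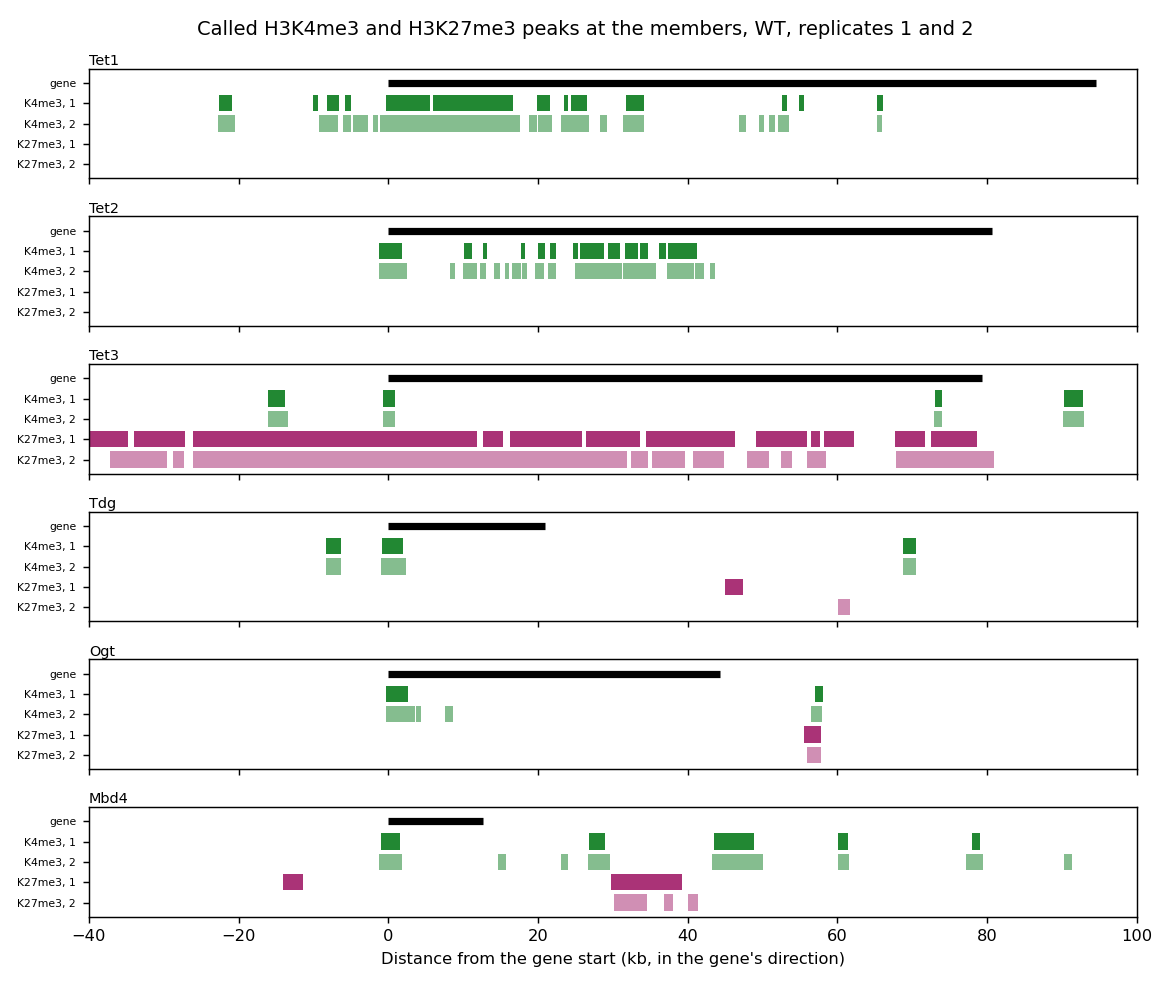
Each panel is 1 gene, with distance from the annotated start in kb on the x axis and rows for the gene and for the H3K4me3 and H3K27me3 peaks of each WT replicate, drawn to scale. H3K27me3 bars lie over the gene in the Tet3 panel only, where they cover 82.3% and 77% of it.

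KAP1 itself was nearest to Tet2. A deposited KAP1 region at chr3:133207164-133207860 covered the Tet2 start, the CpG-dense window printed for it included. The nearest KAP1 region was 13.3 kb from the Tet1 start, 54.6 kb from Tdg, 59.5 kb from Ogt, 121 kb from Mbd4 and 334 kb from Tet3. The nearest region with KAP1-dependent H3K9me3 lay 163 kb from Tet3 and no closer than 54.6 kb to any member. Of 13 tested genes within 250 kb of Tet3, 1 was called higher and none lower after knockdown in WT, and their median log2 change was 0.07. Over all 20321 genes tested, 2200 were called higher and 1329 lower in WT, so nothing is read from this count.

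The 5hmC data, 1 library for each hairpin and so without a replicate check, gave these values at Tet3. Regions at the members numbered 29 of the H3K4me3 set, 14 of the H3K27me3 set, all of these at Tet3, and 1 of the KAP1 set. The H3K4me3 region at the Tet3 start held 38 5hmC reads with shEmpty and 34 with shKap1, over 24 and 27 input reads, a log2 change of 0.02 in 5hmC over input. The exact Poisson intervals, 26.9 to 52.2 and 23.5 to 47.5 reads, overlapped and cover counting error only. The other H3K4me3 region of Tet3, at chr6:83317725-83318587, went from 72 reads (56.3 to 90.7) to 123 (102 to 147) over 19 and 32 input reads, a log2 change of 0.38. The broad H3K27me3 region at the Tet3 start went from 814 to 976 reads over 651 and 862 input reads, a log2 change of 0.19. The H3K27me3 region at chr6:83313001-83319199 went from 316 reads (282 to 353) to 435 (395 to 478) over 124 and 154 input reads, a change of 0.48. The 14 H3K27me3 regions of Tet3 ran from -1.51 to 0.88 with a median change of 0.18, beside 0.27 over all 19316 regions of that set. The sign of these values depends on the scaling. With the libraries scaled to reads over H3K4me3 regions, the H3K4me3 region at the Tet3 start was at -0.37, the other one at -0.01, the broad H3K27me3 region at -0.20 and the whole H3K27me3 set at a median of -0.12, while the region at chr6:83313001-83319199 was at 0.10.

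The H3K4me3 regions at members had a median change of 0.58, beside 0.39 over all 28066 regions of the set, where the central 95% ran from -1.09 to 1.97. The region at the Tet1 start went from 12 reads (6.2 to 21) to 33 (22.7 to 46.3), a log2 change of 1.30 inside that range. Outside it were 3 regions, all in Tet2. Those at chr3:133185015-133185764 (4 to 24 reads) and chr3:133186565-133187310 (0 to 9 reads) had changes of 2.38 and 2.76, and that at chr3:133182039-133182354 (0 to 1 read) had -1.13. With 5 reads added in place of 1 these changes were 1.80, 1.08 and -0.72. The KAP1 region at the Tet2 start held 7 and 9 5hmC reads over 7 and 27 input reads, a change of -1.15, beside a median of 0.64 over 26553 KAP1 regions. All these values rest on few reads, and the 5hmC reads of this KAP1 region without input gave a change of 0.15. Without input the 3 Tet2 regions named above had changes of 2.15, 3.15 and 0.83, in the same order. The median change over all regions at members was 0.48 and fell to 0.09 when the libraries were scaled to reads over H3K4me3 regions.

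Transposable elements (TEs) in the members, or in the 5 kb before their starts, were next read for transcription. Tet3 held 129 integrants, 14 of them LTRs, but they had 27 reads in all and none reached the 16 reads needed for a test. Over the other 5 genes 88 integrants were tested, 35 in Tet1, 13 in Tet2, 8 in Tdg, 17 in Ogt and 15 in Mbd4. None was called higher in WT, DNMT TKO or TET TKO, against 12.1%, 15% and 14.7% of the 123880 TEs tested. At an unadjusted p under 0.05 in edgeR, 0, 1 and 1 were higher and 7, 1 and 10 lower in WT, DNMT TKO and TET TKO, and the median log2 changes were -0.37, -0.03 and -0.51. In WT 3 were called lower, all in Tet1, against 2.05% of all TEs. In DNMT TKO none was, against 0.944% of all, and in TET TKO 1 was, an ORR1A1 in Tet2, against 0.971%.

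The calls in Tet1 rest on few reads. The B1_Mus1 at the Tet1 start had 3, 7 and 8 reads in WT shEmpty and 1, 0 and 1 in WT shKap1, a log2 change of -2.68 (SE 0.93) with an adjusted p of 0.03 in edgeR. A B1F at chr10:62358280-62358417 had 3, 5 and 9 reads and then 2, 0 and 0, a change of -2.60 (SE 0.94) with an adjusted p of 0.041 in edgeR. The third, an RSINE1 at chr10:62354026-62354150, had 1, 6 and 4 reads in WT shEmpty and 0, 0 and 0 in WT shKap1, with an adjusted p of 0.014 in edgeR, and no fold is given for counts this low. All 3 are annotated on the strand of Tet1. B1_Mus1 runs across the gene's start and overlaps an exon, and the others lie inside the gene, so these reads may be reads of the gene. Tet1 counts as a whole did not pass the test.

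The pathway around the members was read through 5 lists. Among 14 glycosylases and base excision repair genes, 2 were called lower and none higher in WT, with 10 lower and 1 higher on the adjusted p alone and a median log2 change of -0.30 beside -0.01 over all genes. Over all 20321 genes tested in WT, 2200 were called higher and 1329 lower, and 4672 were higher and 4605 lower on the adjusted p alone. Neil2, a glycosylase of oxidised bases, fell by 1.34 on the log2 scale in WT and by 1.22 in DNMT TKO, and Ung, which removes uracil from DNA, fell by 1.08 in WT. In DNMT TKO 1 of the list was called lower, beside 491 of all genes, and in TET TKO none, beside 907. On the adjusted p 6 were lower in each, beside 3174 and 3070 of all genes.

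Of 16 TET partners and regulators, 2 were called lower and none higher in WT, and 13 passed on the adjusted p alone, all lower, with a median of -0.38. Of all 20321 genes, 4605 were lower on the adjusted p in WT. Prdm14, a pluripotency factor that is known to work with TET1 and TET2, fell by 2.83 in WT and by 1.79 in TET TKO on the log2 scale, and Sall1, a zinc finger protein of pluripotent cells, fell by 1.22 in WT. The change of Prdm14 was smaller than in WT by 2.26 in DNMT TKO (adjusted p 1.5e-06) and by 1.04 in TET TKO (adjusted p 0.0079) in edgeR. On the adjusted p alone 11 of the 16 were lower and 2 higher in DNMT TKO, with a median of -0.28. In TET TKO 9 were lower and 3 higher, with a median of -0.27. Among all 20321 genes, 3174 and 3070 were lower there. In DNMT TKO and in TET TKO 2 of the list were called higher, beside 2043 and 1635 of the 20321 genes tested. These were Wt1, a zinc finger factor that binds TET2, with 1.30 and 1.57, and Cxxc4, a CXXC protein that binds unmethylated CpGs, with 2.28 and 4.82 from only 59 reads over all libraries.

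The genes of 2-oxoglutarate and vitamin C supply had a median log2 change of -0.02 in WT, beside -0.01 over all genes. D2hgdh, which clears D-2-hydroxyglutarate, an inhibitor of TET enzymes, rose by 1.15 in WT. Of 7 deaminases and Gadd45 genes 1 was called higher in WT and in DNMT TKO and 2 in TET TKO, with none lower, beside 2200, 2043 and 1635 of the 20321 genes called higher. Gadd45g, a stress-response gene linked to DNA demethylation, rose by 3.25, 2.01 and 2.15 in WT, DNMT TKO and TET TKO, and Apobec2, a deaminase family member, by 1.25 in TET TKO. Of 8 genes of 5hmC binding and 5mC protection 1 was called lower in WT, where 1329 of the 20321 genes were, and none in either mutant. This was Hmces, a protein that binds abasic sites, which fell by 1.17. The summed ES cell markers were lower with shKap1 in the mutants too, at 3400 to 4010 CPM against 5120 to 5310 CPM with shEmpty in DNMT TKO and 4050 to 4150 CPM against 6240 to 6330 CPM in TET TKO. Pou5f1 (-0.16 and 0.08), Dppa3 (-0.09 and 0.26) and Nanog (-0.21 and -0.30) did not pass the adjusted p there in edgeR, while the other markers fell. In bulk samples fewer cells of a type and less RNA per cell cannot be told apart.

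Markers of other cell types were read beside the members. In WT, summed levels went from 20.3 to 25.7 CPM with shEmpty to 13.9 to 15.5 with shKap1 for trophoblast, 11.9 to 16.8 to 12.6 to 15 for primitive endoderm and 2.87 to 4.66 to 1.92 to 2.12 for mesoderm. Neural markers went from 0.778 to 1.78 CPM to 6.37 to 8.39 CPM, formative and primed ones were at most 3.41 CPM and fibroblast ones at most 4.98 CPM. Single markers went both ways. Of 5 trophoblast markers 2 were called higher and 1 lower in WT, and of 5 primitive endoderm markers 1 higher and 2 lower. Of 3 mesoderm markers 1 was called lower, and of 3 fibroblast markers 1 higher and 1 lower. Of 2 neural markers tested 1 was called higher, and of 2 formative and primed ones 1 lower. Among all 20321 genes 2200 were called higher and 1329 lower. Pou3f1, a formative marker, was listed at 0 reads in all libraries, and Tcstv3 and Sox1 were not found under these names. The part of other cell types in the changes of the members was not tested. The 2-cell-like sum was 56.7 to 123 CPM in DNMT TKO shKap1 and 619 to 637 CPM in TET TKO shKap1, where Tet3 stood at 20.89 to 26.71 and 17.81 to 21.02 CPM.

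The genes whose levels followed Tet3 most closely over the 16 libraries were Kremen1, a receptor of the Wnt antagonist Dickkopf, with Pearson's r of 0.983, Znfx1 with 0.948 and Sort1, a sorting receptor, with 0.942. Among 9694 or 9695 genes compared these were chosen by r, and all points share the same libraries and scaling, so no p is given. Kremen1 had log2 changes after knockdown of 1.09 in WT, 0.09 in DNMT TKO and 0.26 in TET TKO, and Sort1 had 1.27, 0.13 and 0.04. For Tet1 the closest was Gm11942 (0.986), for Tet2 Gm13443 (0.968), for Tdg Taf5l (0.96), for Ogt Actn1 (0.933) and for Mbd4 Zfp746 (0.89), the last on chromosome 6 with Mbd4. Tet1 and Tet2 are targets in TET TKO. Without knockdown Gm11942 and Gm13443 differed there from WT by -3.67 and -2.91 on the log2 scale. After knockdown in WT, DNMT TKO and TET TKO, Gm11942 changed by -0.21, -0.04 and 0.22. Gm13443 changed by 0.002, -0.08 and -0.09. The part of the TET TKO line in these r was not tested.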

How the data were processed

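RNA-seq used the TruSeq Stranded mRNA kit with 100-base reads. The deposited gene values are read counts that the authors made with featureCounts on uniquely aligned reads. The submitters' processing notes name HISAT2 2.0.1 and featureCounts 1.5.1, while the file headers carry a TopHat-style name, so the aligner is uncertain. TE and 5hmC values are counts the authors made with bedtools over repeats and region sets. The authors deposited peaks with a score for each replicate, and the study's methods name MACS, or SICER for H3K9me3. The H3K27me3 peaks at Tet3 lie on a fixed grid, as SICER windows do, so which program made them and their scores is uncertain.

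The 16 RNA libraries (18108431 to 29373696 reads on genes) were fitted together as 6 groups in edgeR 4.0.16 (R 4.3.3), with TMM scaling, the robust quasi-likelihood test and Benjamini-Hochberg adjustment over all genes with at least 16 reads. Genes were called at an adjusted p under 0.05 with at least a 2-fold change, the thresholds of the study. limma 3.58.1 (voom, the method of the study) and DESeq2 1.42.0 were alternatives, and other scaling, filters, fold thresholds, a replicate block, chromosome medians and leaving out libraries were tried. TEs took their scaling from the genes. The 5hmC counts were scaled to reads over all region sets, with 1 read added, and replicate 2 was left out because its labels and its file names disagree on which library is which. Fitting was tested on simulated counts that held no difference between replicates like that of replicate 1, so it does not cover that feature of the data. Same-numbered libraries departed from their group means in the same way in every pair of WT and DNMT TKO groups. Over 9695 genes r was 0.119 to 0.652, with no such likeness to TET TKO libraries. Libraries of different numbers were not compared. Replicate 1 stood apart in each WT and DNMT TKO group, which by itself moves the other replicates off the mean alike. The values therefore link the replicate 1 libraries and cannot decide whether the other numbers pair libraries. Readings of same-numbered pairs, given for Tet2 and Ogt, are descriptions only. Any pairing comes from the values.

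Members, lists and tests were chosen with earlier results of these data known. Named genes are the members, the targeted genes, up to 2 called list genes per direction and contrast with the largest change, and the genes most like a member by Pearson's r of log2 CPM among genes of at least 10 CPM. Some results of the list of 2-oxoglutarate and vitamin C supply are not reported here.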

Additional observations from a re-analysis of the deposited data

Results flagged for a closer look

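The effect of Kap1 knockdown differed between genotypes for 3 combinations of gene and genotype, tested as the difference of the effects in edgeR with Benjamini-Hochberg adjustment. For Tet3 the log2 effect was lower than in WT by -1.67 in DNMT TKO and by -1.3 in TET TKO, where it was lower in all alternative fits. For Tet2 it was lower by -0.46 in TET TKO, on the transcripts left in a line that lacks the gene. Tet3 is a target in that line as well. That Tet2 difference did not pass in limma-voom, in a fit of only these 4 groups or without WT shKap1 replicate 2 or 3. Nor did it pass without any one of the TET TKO libraries. The dependence of Tet3 on genotype was known when the genes were chosen, so its values are descriptions. All share the WT libraries, and their causes were not tested.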

How the results depend on the processing

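No called change of a member turned its direction under any alternative, while some small changes that passed no test did change sign, such as Tet1 in WT (-0.13 to 0.05). With no fold threshold the members called were 2 in WT, 1 in DNMT TKO and 3 in TET TKO after knockdown, 2 for the difference of TET TKO from WT in that effect and 3 for DNMT TKO against WT without knockdown, because smaller changes then count. The median log2 change of 5hmC over regions at members, 0.48 as reported, was 0.09 when scaled to reads over H3K4me3 regions, 0.18 without input and 0.39 with 5 reads added, and the cause was not tested. Leaving out libraries (1 at a time, or replicate 1 of WT and DNMT TKO together, the latter chosen after seeing the data) gave a Tet3 change in WT of 1.61 to 1.91. It gave -1.82 to -1.5 for its difference in DNMT TKO and -1.44 to -1.09 for that in TET TKO. The members called after knockdown were then 1 to 1 in WT, 0 to 0 in DNMT TKO and 0 to 0 in TET TKO. They were 1 to 1 for both differences in the effect, 0 to 0 for DNMT TKO and 3 to 3 for TET TKO without knockdown, and 0 to 0 for TEs called higher in WT. The replicate block gave Tet3 changes of 1.82 in WT, -1.69 for the DNMT TKO difference and -1.31 for the TET TKO one. It joined TET TKO libraries to WT and DNMT TKO libraries of the same number, although these did not depart from their group means alike. It changed the call on the adjusted p for Mbd4 in DNMT TKO against WT and for no other member. For single members, 641 of 650 values stayed on their side of the call that needs a 2-fold change, and the other 9 passed with no fold threshold. Most of these changes were well under 2-fold, so this count could hardly move and says little about stability. On the adjusted p alone several results did change, as given for each member above, and Tdg in WT passed in 9 of 14 alternative fits. Where leaving out a library left TET TKO with 1 sample in a group, that sample was taken to vary like the other groups. Tdg and the TEs rest on few reads, 5hmC on 1 library per hairpin, and TET TKO on 2 libraries per group.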
